A study of Mus musculus with 6 samples.

Results

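The myogenic regulatory factors were 4 genes, *Myod1*, *Myog*, *Myf5* and *Myf6*, taken by gene symbol from the 46078 genes of a table of RNA-sequencing read counts. The members were taken by name, with earlier results of these data known. The counts came from C2C12 cells, an immortalized mouse myoblast line that exits the cell cycle and fuses into myotubes when serum is reduced. *Hnrnpa2b1* KO cells were made with CRISPR/Cas9 and a guide RNA against *Hnrnpa2b1*, which encodes a nuclear RNA-binding protein, and were compared with WT cells of the same line. Both genotypes were differentiated for 48 hr by serum withdrawal, which the culture methods give as a switch to low horse serum with insulin, transferrin and selenium (ITS), and total RNA was sequenced in 3 libraries of each, numbered KO1, KO2, KO3, WT1, WT2 and WT3. Clones of both genotypes, 3 of each, were picked after puromycin selection, and the sources used here do not state which clone gave which library. The study calls the datasets of each genotype independent, but neither it nor the labels say whether they came from separate clones or cultures, so the p-values below measure the spread between these libraries.

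The myogenic regulatory factors are basic helix-loop-helix transcription factors that bind the E-box, a short DNA motif, as dimers with ubiquitous E proteins. In muscle, MyoD and Myf5 are known for committing precursors to the lineage, myogenin for driving terminal differentiation, and MRF4, the product of *Myf6*, for acting both in early precursors and late in muscle fibres. They act with MEF2 factors on shared muscle genes, and Id proteins inhibit them by taking up the E proteins.

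All 4 members had 3 exons and a single annotated transcript in GENCODE M21 (mouse build GRCm38). *Myod1* (ENSMUSG00000009471) lies on the + strand at chr7:46376474-46379092 and *Myog* (ENSMUSG00000026459) on the + strand at chr1:134289989-134292548. *Myf5* (ENSMUSG00000000435, chr10:107482908-107486134) and *Myf6* (ENSMUSG00000035923, chr10:107492860-107494729) lie on the - strand beside each other, with 6725 bases between them. No other annotated gene overlapped any of the 4, so reads were not shared with an overlapping gene. The coding sequences held 318 codons for *Myod1*, 255 for *Myf5*, 242 for *Myf6* and 224 for *Myog*, stop codons not counted. The stretch of 150 coding bases most alike among them is shown because it is where reads of one member could best be mistaken for another. It spans coding bases 325 to 474 of *Myod1*, 241 to 390 of *Myog*, 247 to 396 of *Myf5* and 277 to 426 of *Myf6*, counted from the start codon in the GENCODE M21 transcripts, with the bases that are identical in all 4 in capitals.
Myod1: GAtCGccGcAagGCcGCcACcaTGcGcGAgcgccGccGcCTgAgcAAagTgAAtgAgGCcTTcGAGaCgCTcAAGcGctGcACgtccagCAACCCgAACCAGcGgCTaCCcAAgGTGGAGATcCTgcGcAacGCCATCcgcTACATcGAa
Myog: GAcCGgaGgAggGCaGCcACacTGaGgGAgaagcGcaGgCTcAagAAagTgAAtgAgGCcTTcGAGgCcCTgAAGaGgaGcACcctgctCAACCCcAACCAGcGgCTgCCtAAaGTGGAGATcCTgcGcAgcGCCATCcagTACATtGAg
Myf5: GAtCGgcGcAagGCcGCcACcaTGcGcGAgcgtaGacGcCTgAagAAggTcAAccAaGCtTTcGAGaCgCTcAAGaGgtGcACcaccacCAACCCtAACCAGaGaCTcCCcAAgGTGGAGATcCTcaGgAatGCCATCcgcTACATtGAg
Myf6: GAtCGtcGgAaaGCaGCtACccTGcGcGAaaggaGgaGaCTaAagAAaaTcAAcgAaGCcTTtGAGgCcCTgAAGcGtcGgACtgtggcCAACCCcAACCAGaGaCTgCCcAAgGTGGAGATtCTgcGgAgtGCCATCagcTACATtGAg

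In this stretch 89 of 150 bases were identical in all 4 genes. Pairwise identity was highest between *Myod1* and *Myf5*, at 82.0%, and lowest between *Myog* and *Myf5*, at 70.0%. The longest run of bases shared exactly by any pair of whole transcripts was 26, between *Myod1* and *Myf5*, and the other 5 pairs shared runs of 12 to 21. Reads were 150 bases long, so a read at full length could match only one member exactly.

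The bases before the *Myog* start site are shown because *Myog* is a known target of MyoD. In RefSeq (GRCm38.p6) the 250 bases before its start lie at chr1:134289754-134290003 on the + strand. Matches to the E-box CANNTG, which reads as an E-box on both strands, are in capitals.
Myog promoter: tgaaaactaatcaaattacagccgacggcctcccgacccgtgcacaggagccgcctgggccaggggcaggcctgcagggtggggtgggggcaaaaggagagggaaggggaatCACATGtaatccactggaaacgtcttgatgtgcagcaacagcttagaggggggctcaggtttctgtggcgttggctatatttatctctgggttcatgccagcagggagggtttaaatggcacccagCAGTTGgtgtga

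There were 2 matches, CACATG beginning 138 bases and CAGTTG beginning 12 bases before the RefSeq start site. The GENCODE M21 start given above lies within the printed window, so by that annotation CAGTTG falls inside the transcript. At least 1 CANNTG was present in 66.2% of the 32851 RefSeq promoters of this length, so its presence did not set *Myog* apart. The 250 bases before the *Myf5* start held no CANNTG. Promoter sequences were matched for 2 of the 4 members. A match to these letters is a description of the sequence, and binding was not measured in these libraries.

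The 6 libraries held 33605258 to 40558740 counted reads each. *Hnrnpa2b1* RNA itself stood at 159 to 249 CPM over the KO libraries and 225 to 252 CPM over the WT libraries, and the edgeR test did not separate them (log2 fold change −0.23, adjusted p = 0.381). Its RNA is therefore no check of the labels. The methods describe a check of the KO clones at the protein level, by immunofluorescence and Western blot, and protein is not in these files. CPM are read counts relative to library size, scaled with edgeR's TMM factors, and a log2 fold change is of KO over WT throughout. The libraries of KO were less alike than those of WT: KO1 stood apart from KO2 and KO3 in muscle genes, as given with the targets below. Of muscle identity markers, *Ttn* (titin) ran from 2596 to 9878 CPM and *Des* (desmin) from 1163 to 2769 CPM over the 6 libraries, so that both genotypes carried muscle RNA. Of 10 such markers 1 fell (*Actn2*) and none rose, with a median log2 fold change of −0.37, where 10.6% of all genes tested fell. All of these markers except *Neb* are also among the targets below. Without KO1 6 of the 10 fell, where 15.1% of all genes tested did, and the median was −0.72. It was −0.10 without KO2 and −0.11 without KO3.

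Across the family, *Myod1* RNA was 1.98-fold higher in KO, *Myf5* was 2.83-fold lower, and *Myf6* had 20 reads in KO, 15 of them in KO1, and 223 in WT. *Myog*, by far the most abundant member per transcript length, had mean CPM of 1415 in KO and 1354 in WT, a difference within the spread of the libraries. All 4 members passed the filter on low counts. One of them rose and 2 fell at an adjusted p under 0.05 in edgeR's quasi-likelihood test over 14828 genes. Of all genes tested, 22.7% passed the test, 12.1% as higher and 10.6% as lower in KO. The KO and WT libraries did not overlap in CPM for 3 of the 4 members, against 44.3% of all genes tested. With 4 members, neither count separates the family from other genes. In bulk RNA, fewer cells of a type and less RNA per cell cannot be told apart.

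**Figure D1:**
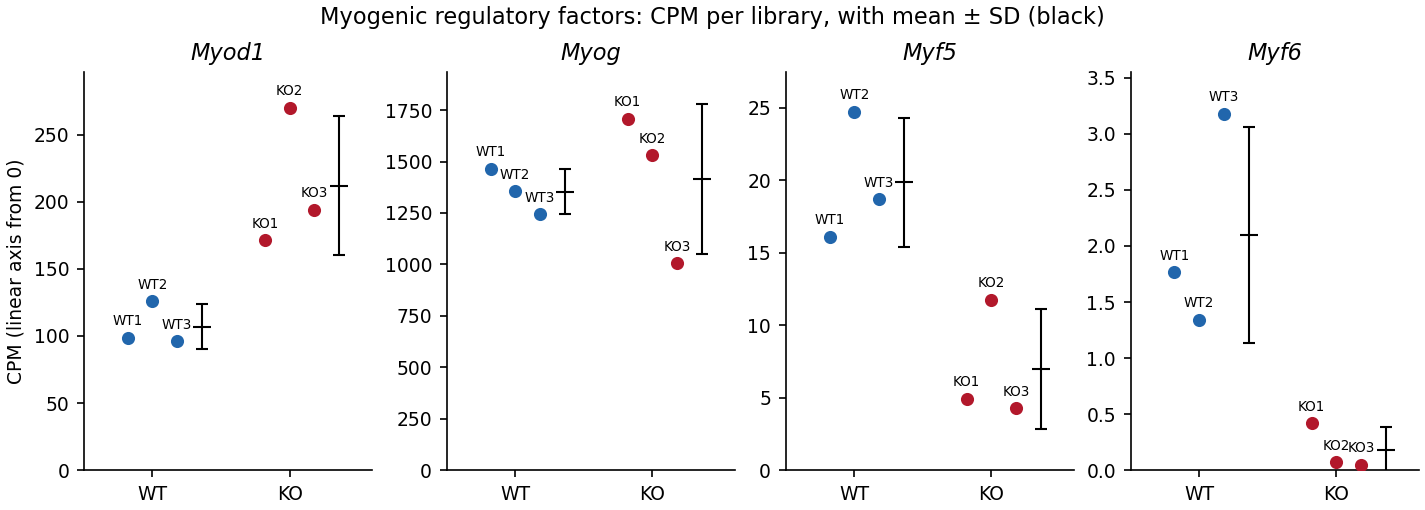
CPM of each member (vertical axis, linear and starting at 0) in the 3 WT (blue) and 3 KO (red) libraries, with the mean ± SD of each genotype in black; each panel has its own scale, and the SD of *Myf6* in KO is cut at 0. *Myod1* lies higher and *Myf5* and *Myf6* lower in every KO library than in any WT library, whereas the *Myog* points of KO1 to KO3 lie on both sides of those of WT.

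*Myod1*, which encodes the lineage factor MyoD, had 171, 270 and 194 CPM in KO1, KO2 and KO3. It had 98.5, 126 and 96.0 CPM in WT1, WT2 and WT3. Every KO library lay above every WT library, with KO2 the highest and WT3 the lowest. The means were 211.8 ± 51.7 CPM in KO and 106.8 ± 16.7 CPM in WT (SD, n = 3 each; edgeR adjusted p = 0.0141). The rise was 1.98-fold, a log2 fold change of 0.99 (standard error 0.20, 95% interval 0.52 to 1.46). Of the genes tested, 10.6% had a larger log2 fold change. On TPM, which StringTie corrects for transcript length, *Myod1* stood at 56.3, 93.5 and 79.7 in KO and 36.3, 47.8 and 32.7 in WT. Its difference on the log2(TPM + 1) scale was 0.94 (standard error 0.22, limma, adjusted p = 0.0198), where 20.5% of the 11691 genes tested passed, and leaving out KO2, KO3, WT1 or WT3 (0.0504 to 0.098) or the filter on low values (0.0931) ended this call too. The call on counts was lost without WT1 (0.92, adjusted p = 0.0789) and without WT3 (0.89, adjusted p = 0.0695) in edgeR, with the log2 fold change between 0.78 and 1.12 over the 11 alternatives.

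*Myog*, which encodes myogenin, had 1709, 1532 and 1005 CPM in KO1, KO2 and KO3. It had 1464, 1355 and 1244 CPM in WT1, WT2 and WT3. KO1 was the highest and KO3 the lowest of the 6 libraries, so that the WT range lay inside the KO range. The SD was 366 CPM in KO and 110 CPM in WT around means of 1415 and 1354 CPM. The log2 fold change was 0.06 (standard error 0.24, edgeR adjusted p = 0.863), with a 95% interval from −0.48 to 0.61. That interval reaches from 0.717-fold to 1.52-fold, so changes of this size are not excluded, and the values do not show that *Myog* was equal in KO and WT. In TPM the KO libraries held 696, 661 and 513 and the WT libraries 673, 641 and 526. The sign turned without KO1 (−0.10) and without WT3 (−0.03), and no alternative brought the adjusted p below 0.364.

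*Myf5*, the other factor known for early commitment, had 4.92, 11.8 and 4.27 CPM in KO1, KO2 and KO3. It had 16.1, 24.7 and 18.7 CPM in WT1, WT2 and WT3. KO2 was highest in KO, as it was for *Myod1*, and still lay below WT1, the lowest WT library. The means of 6.99 ± 4.15 CPM in KO and 19.9 ± 4.43 CPM in WT (SD, n = 3 each; edgeR adjusted p = 0.0303) stood 2.83-fold apart in the fit. The log2 fold change was −1.50 (standard error 0.39, 95% interval −2.41 to −0.60), and 3.84% of genes tested had a smaller one. *Myf5* TPM were 1.47, 3.61 and 1.55 in KO and 5.23, 8.35 and 5.60 in WT, a difference of −1.24 on the log2(TPM + 1) scale (limma, adjusted p = 0.0148), a call lost without WT1 or WT3 and with no filter on low values. The call on counts was lost in edgeR without KO3 (−1.24, adjusted p = 0.0786), WT1 (−1.64, 0.0771), WT2 (−1.32, 0.0826) or WT3 (−1.58, 0.0781). Without KO2 the log2 fold change was −2.11.

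*Myf6*, which encodes MRF4, was the rarest member, and its counts are given as reads. There were 15, 3 and 2 reads in KO1, KO2 and KO3, and 61, 44 and 118 reads in WT1, WT2 and WT3. KO2 and KO3 were at or under 3 reads, the limit below which a library shows no more than a count of 0, and WT3 was the highest. Summed over libraries there were 20 reads in KO and 223 in WT. Relative to the libraries' sizes the WT level was 12.8 times that of KO, with an exact 95% interval of 8.12 to 21.4 that covers counting error only. Of the 20 KO reads 15 were in KO1, and without KO1 the fitted log2 fold change was −5.08. In CPM, KO held 0.179 ± 0.209 and WT 2.10 ± 0.963 (SD, n = 3 each; edgeR adjusted p = 0.0162). The fitted log2 fold change was −3.58 (standard error 0.76), and 0.89% of genes tested had a smaller one. *Myf6* was under 1 TPM in 5 of the 6 libraries, between 0.0172 and 0.188 in KO and between 0.680 and 1.61 in WT, and was left out of the TPM test by its filter. The edgeR call was lost without WT1 (−3.69, adjusted p = 0.0573) and without WT3 (−3.17, adjusted p = 0.0647).

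**Figure D2:**
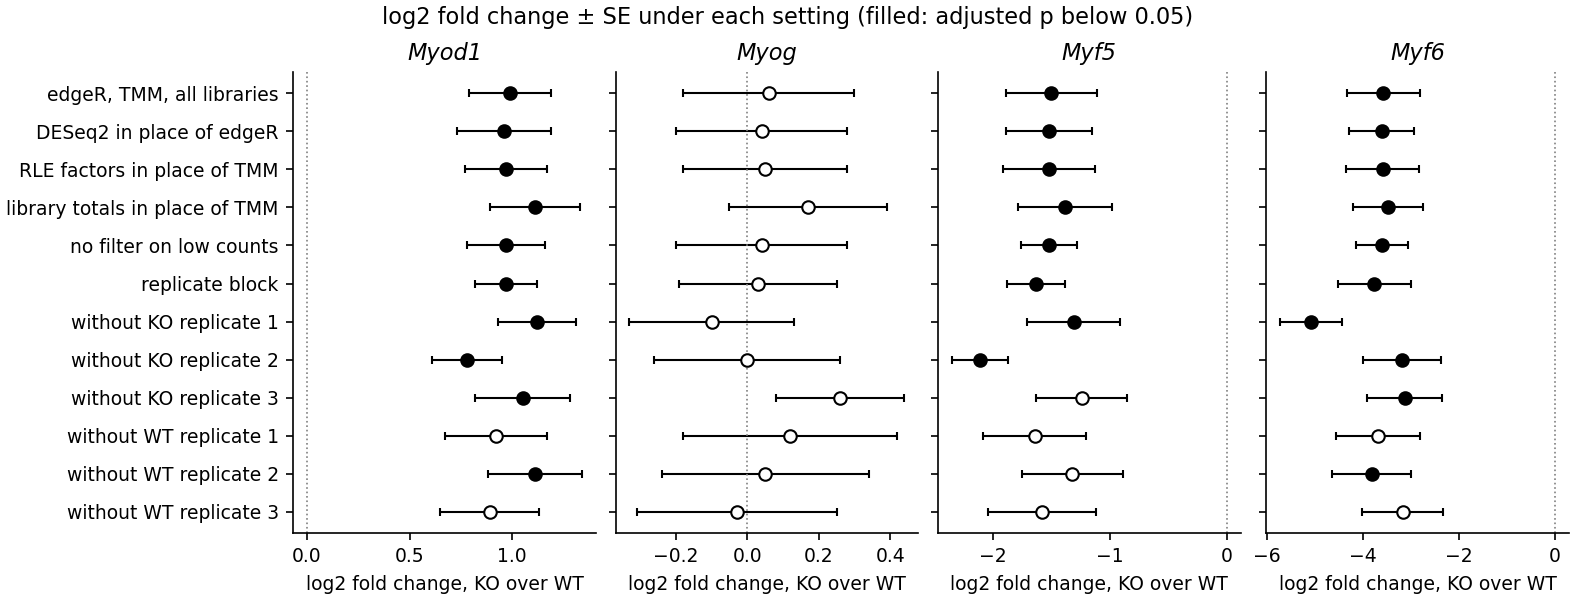
log2 fold change of KO over WT (horizontal axis) ± standard error for each member under each way of testing the counts and with each library left out in turn; filled points have an adjusted p below 0.05. *Myod1* stays between 0.78 and 1.12 and *Myf5* between −2.11 and −1.24, whereas *Myog* lies on both sides of 0, from −0.10 to 0.26.

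Per transcript length the members kept one order in all 6 libraries, *Myog* above *Myod1*, *Myod1* above *Myf5* and *Myf5* above *Myf6* in TPM. Within each genotype the TPM ranges of neighbours in this order did not overlap. By mean TPM *Myog* ranked 73rd of all genes in KO and 97th in WT. *Myod1* ranked 713th in KO and 1567th in WT, *Myf5* 10053rd and 6597th, and *Myf6* 17165th and 11333rd. The distance between the factors changed more than their order: *Myog* exceeded *Myod1* by 12.4, 7.06 and 6.44 times in TPM in the KO libraries and by 18.5, 13.4 and 16.1 times in the WT libraries.

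*Myod1* and *Myog* were compared directly as the ratio of their TPM within each library, which no scaling between libraries can move. The ratio of *Myod1* to *Myog* stood at 0.0808, 0.142 and 0.155 over the KO libraries in their order and at 0.0540, 0.0746 and 0.0622 over the WT libraries. All KO libraries lay above all WT libraries, with KO1 next to WT2. The ratio was 1.92-fold higher in KO, a log2 difference of 0.94 (two-sided, by exact permutation of the libraries, p = 0.1, n = 3 against 3). That is the smallest p that 3 libraries against 3 can give, so this test cannot pass 0.05 here. Adjusted over all 6 pairs of members it was 0.12. Leaving out 1 library at a time gave log2 differences from 0.763 to 1.23, and CPM in place of TPM gave 0.941.

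**Figure D3:**
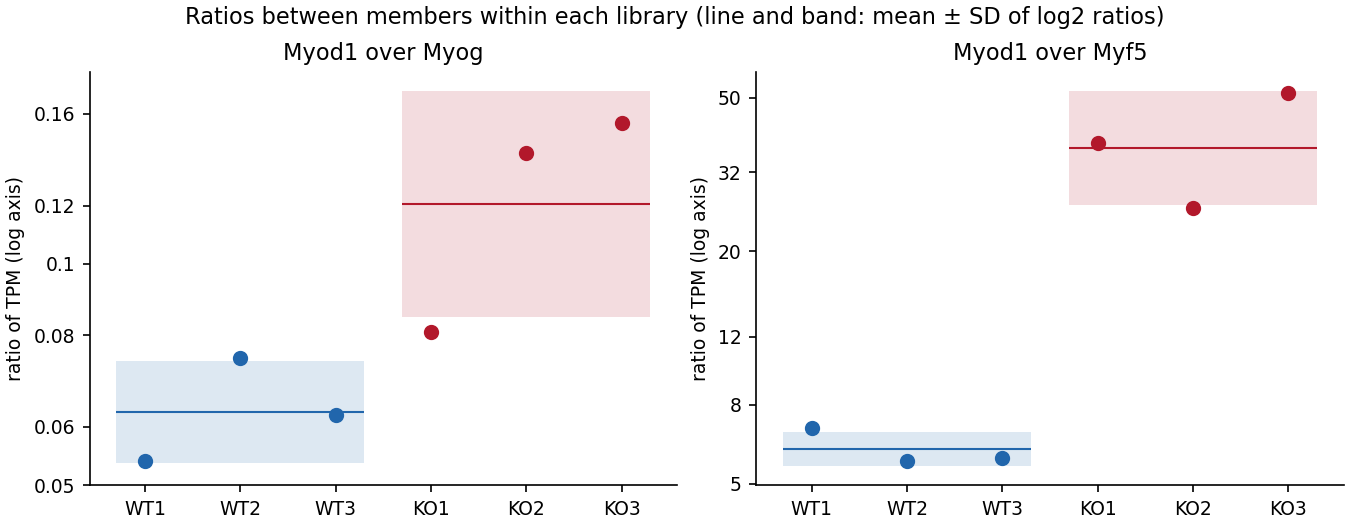
Ratio of TPM within each library (vertical axes, logarithmic) of *Myod1* over *Myog* (left) and *Myod1* over *Myf5* (right), with the mean ± SD of the log2 ratios of each genotype as line and band. *Myod1* over *Myog* runs from 0.0540 to 0.0746 in WT and from 0.0808 to 0.155 in KO, and *Myod1* over *Myf5* from 5.73 to 6.95 in WT and from 25.9 to 51.4 in KO.

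The early factors *Myod1* and *Myf5* moved in opposite directions. Their TPM ratio was 38.2, 25.9 and 51.4 in KO and 6.95, 5.73 and 5.84 in WT. KO3 held the highest ratio and WT2 the lowest, and the genotypes did not overlap. The ratio was 6.03-fold higher in KO (two-sided, by exact permutation of the libraries, p = 0.1, the smallest possible). *Myog* over *Myf5* was 3.14-fold higher in KO, also without overlap. The ratio of *Myf5* to *Myf6* was 7.82 in KO1 and ran from 3.47 to 12.3 in WT, so the genotypes overlapped. In KO2 and KO3 it came to 101 and 90.0 over 3 and 2 *Myf6* reads, no more than a count of 0. Those ratios are therefore not exact. The permutation test that used them (two-sided, exact, p = 0.2, n = 3 against 3) cannot decide whether the falls of these chromosomal neighbours differ.

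As shares of the family's summed TPM, *Myog* made up 86.3% to 92.3% in KO and 91.9% to 94.1% in WT, overlapping ranges. *Myod1* made up 7.46%, 12.3% and 13.4% in KO and 5.08%, 6.85% and 5.78% in WT. The *Myod1* share was 11.1% ± 3.17 in KO and 5.90% ± 0.891 in WT (SD), 5.17 percentage points apart (two-sided, by exact permutation of the libraries, p = 0.1, n = 3 each). *Myf5* fell from a share of 0.972% ± 0.233 in WT to 0.311% ± 0.147 in KO, without overlap, and *Myf6* was 0.170% ± 0.101 in WT and 0.0109% ± 0.0122 in KO (SD, n = 3 each). KO1 had a *Myf6* share of 0.0250%, against 0.00472% for KO2 and 0.00290% for KO3, so that KO1 set most of the KO mean, and the difference of −0.160 percentage points was −0.102 without WT3. The summed TPM of the 4 was 754, 758 and 594 in KO and 715, 698 and 566 in WT, ranges that overlapped. WT3 and KO3 held the least of their genotype.

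Over the 6 libraries, which share their genotype difference, Pearson's r of log2 CPM was −0.94 between *Myod1* and *Myf6*, 0.72 between *Myf5* and *Myf6* and −0.57 between *Myod1* and *Myf5*. *Myog* had r between 0.08 and 0.16 with the other members. The genes whose log2 CPM tracked *Myod1* most closely, among 5250 well-expressed genes, were *Nudt21*, *Gorab*, *Nadk*, *Mtch1* and *Knop1*, with r from 0.9931 to 0.9964. All 5 passed the edgeR test as higher in KO, with log2 fold changes from 0.47 (*Knop1*) to 1.30 (*Gorab*). For *Myog* they were *Tuba1c*, *Rpl36al*, *Cops8*, *Pa2g4* and *Ppp1r11*, with r from 0.9544 to 0.9882. None of these 5 passed the test. For *Myf5* they were *Hspb11*, *Gart*, *Alg14*, *Dtx3* and *Dda1*, with r from 0.9834 to 0.99, and none passed. For *Myf6* they included *Tmem132a*, *Tmem161a*, *Large* and *Cnih4*, with r from 0.993 to 0.9994, and these 4 passed as lower in KO, with log2 fold changes from −1.63 (*Tmem132a*) to −0.49 (*Cnih4*). These are the highest of all the r values over only 6 libraries, and they are given as a description.

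The neighbours of the members on the chromosome were read to see whether whole regions moved with them. Over all genes tested, 22.7% passed in either direction. Within 500 kb of *Myod1*, 13 genes were tested and their median log2 fold change was 0.03, the same as the median of all genes tested. Only *Hps5*, which encodes a protein of lysosome-related organelle biogenesis, rose there (0.71, edgeR adjusted p = 0.0113), and its call was lost without WT1 or WT3. *Ldha*, which encodes lactate dehydrogenase A, was at 0.52 (adjusted p = 0.177). Within 500 kb of *Myog*, 17 genes were tested with a median of 0.07. *Prelp*, which encodes a matrix proteoglycan, rose by 2.14 (edgeR adjusted p = 0.00717) and kept its call with any library left out. *Cyb5r1* fell by 1.02 (adjusted p = 0.0216), a call lost without KO3, WT1, WT2 or WT3. *Mybph*, a myosin-binding protein gene 96.5 kb from *Myog*, was at 0.05 (adjusted p = 0.937) with all libraries, and at −0.71 (adjusted p = 0.0113) without KO1, which held 1127 CPM against 361 and 371 CPM in KO2 and KO3 and 570 to 619 CPM in WT. Around *Myf5* and *Myf6* only 4 genes were tested, each of the pair counted for the other. *Acss3* was at −0.61 (adjusted p = 0.647), *Lin7a* at 0.56 (0.644) and *Ptprq* at −1.03 (0.0759), and none of these 3 passed. The 16 tested genes of the region of 10 Mb that holds them had a median of −0.47, and *Myf6* and *Myf5* lay 3.10 and 1.03 below that median.

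**Figure D4:**
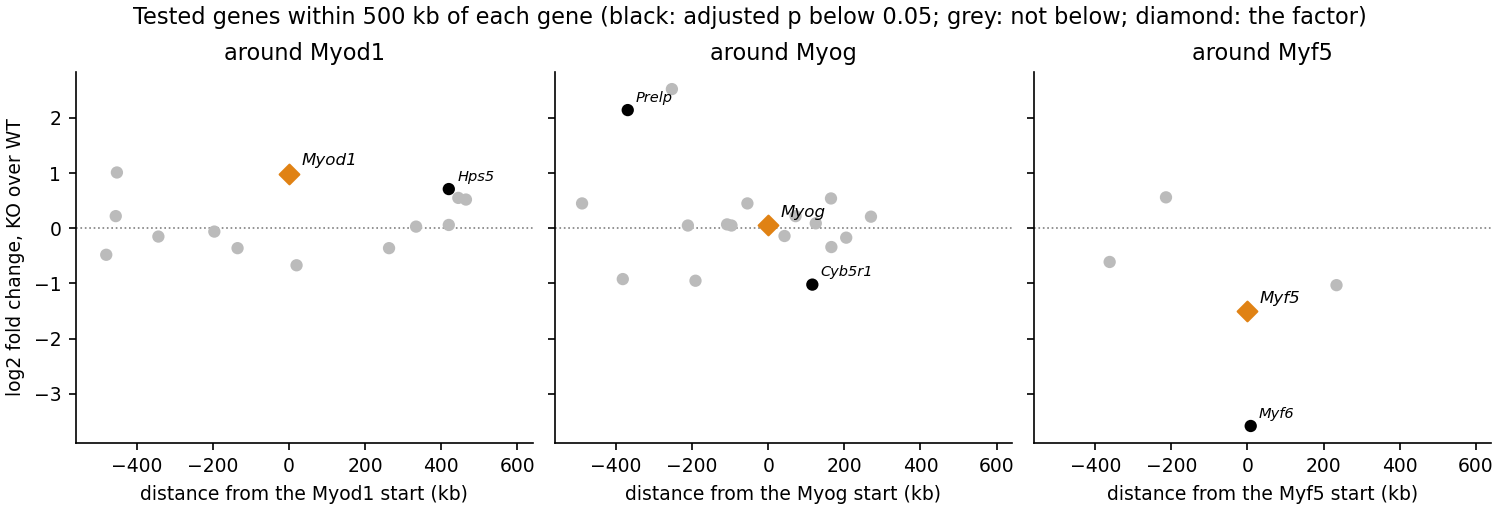
log2 fold change of KO over WT (vertical axis) of the genes tested within 500 kb of the starts of *Myod1*, *Myog* and *Myf5* (horizontal axis, distance in kb); black points have an adjusted p below 0.05 and the diamond is the factor itself. Around *Myod1* 1 of 13 neighbours passed the test, around *Myog* 2 of 17, and around *Myf5* the passing neighbour is *Myf6*. Of all genes tested, 22.7% passed.

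The partners, inhibitors and targets of the factors were described by lists, each beside the 12.1% of genes that rose, the 10.6% that fell and the median of 0.03 over all genes tested. None of the 3 E protein genes passed the test. *Tcf12* was at −0.31 (edgeR adjusted p = 0.242), *Tcf4* at −0.03 and *Tcf3*, which encodes E12 and E47, at 0.05. Of the 4 *Id* genes, whose products take up E proteins, *Id1* rose, from between 5.47 and 8.81 CPM in WT to between 14.2 and 19.8 CPM in KO (log2 fold change 1.23, adjusted p = 0.00957), a call lost without WT1. *Id2* was at 0.78 and *Id3* at 1.12, and neither passed. *Id4* fell (adjusted p = 0.00416), from between 0.823 and 1.42 CPM in WT to 0.0560 CPM in KO1 and no reads in KO2 and KO3. The *Id* group had 1 gene up and 1 down, with a median of 0.95. The median was 0.44 without KO2, and without KO1 3 of the 4 rose, where 15.5% of all genes tested rose.

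Among other genes known to repress MyoD, 13 of 15 were tested, and 4 rose and 2 fell, with a median of 0.50. *Mdfi*, which encodes the I-mfa protein that binds myogenic factors, rose from between 1.16 and 1.76 CPM in WT to between 6.64 and 8.89 CPM in KO. Its log2 fold change was 2.37 (standard error 0.26, edgeR adjusted p = 0.00205), and the call held with any library left out. *Hes1*, a Notch target, rose by 0.97, *Bhlhe41* by 0.61 and *Snai1* by 0.60. The calls of *Hes1* and *Bhlhe41* were kept only without KO1, and that of *Snai1* was lost whichever library was left out. *Zeb1* fell by 0.74, a call lost without WT1, and *Sim2* fell by 0.78, a call lost without WT1 or WT2. Leaving out any library other than KO1 left 1 gene of this list higher. Of all genes tested, 9.43% rose without KO2, 7.8% without KO3, 2.96% without WT1, 6.95% without WT2 and 4.03% without WT3.

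Of 16 genes known to act before the factors in the lineage, 11 were tested, 2 rose and 3 fell, with a median of −0.32 (−0.18 without KO3). Without KO1 2 rose and 5 fell, where 15.5% of all genes tested rose and 15.1% fell. Without KO2 or WT2 1 rose and 1 fell, where 9.43% and 6.95% of all genes rose and 8.29% and 6.68% fell. Without WT1 or WT3 none rose and 1 fell, where 2.96% and 4.03% of all genes rose and 3.05% and 4.4% fell. *Pax7*, the stem cell factor, was 19.6, 29.5 and 18.4 CPM in KO and 9.89, 3.99 and 9.65 CPM in WT (log2 fold change 1.52, edgeR adjusted p = 0.0223), a call lost without KO2, WT1 or WT3. *Meox1* fell by 2.43 and was at −3.23 without KO3, and its call was lost without KO2, WT1, WT2 or WT3. *Eya4* fell by 0.50, a call kept only without KO1.

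MEF2 factors bind muscle promoters together with the myogenic factors, and 1 of the 3 tested fell. *Mef2c* was 17.1, 2.34 and 1.17 CPM in KO and 80.8, 162 and 189 CPM in WT. The KO libraries were all below the WT libraries, with KO1 the highest of KO. The log2 fold change was −4.40 (standard error 0.95, edgeR adjusted p = 0.0169), and the call was lost without WT3 (adjusted p = 0.0556). Without KO1 it was −6.35 (adjusted p = 0.000159). *Mef2a*, the most abundant, was at −0.01 and *Mef2d* at −0.41, and neither passed. Of 25 chromatin regulators and cofactors, 4 rose and 2 fell, with a median of 0.01. With library totals in place of TMM 7 rose and 1 fell (median 0.13), where 66.2% of the 3469 genes called were higher in KO. Without KO1 7 rose and 3 fell, where 15.5% of all genes tested rose and 15.1% fell. Without WT1 none rose and 1 fell, where 2.96% of all genes tested rose and 3.05% fell. Without KO3, WT2 or WT3 1 rose and 1 fell, where 7.8%, 6.95% and 4.03% of all genes tested rose. In those fits 6.13%, 6.68% and 4.4% fell. *Hdac1*, a histone deacetylase, rose by 1.06 (adjusted p = 0.0106), a call lost without WT1. *Ddx5* and *Ep300* rose by 0.68 and 0.56. The call of *Ddx5* was kept only without KO1, and that of *Ep300* was lost without KO3, WT1, WT2 or WT3. *Rb1*, the retinoblastoma gene, fell by 0.79 (adjusted p = 0.00762), with any library left out too, and *Zbtb18* fell by 0.52, a call kept only without KO1.

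**Figure D5:**
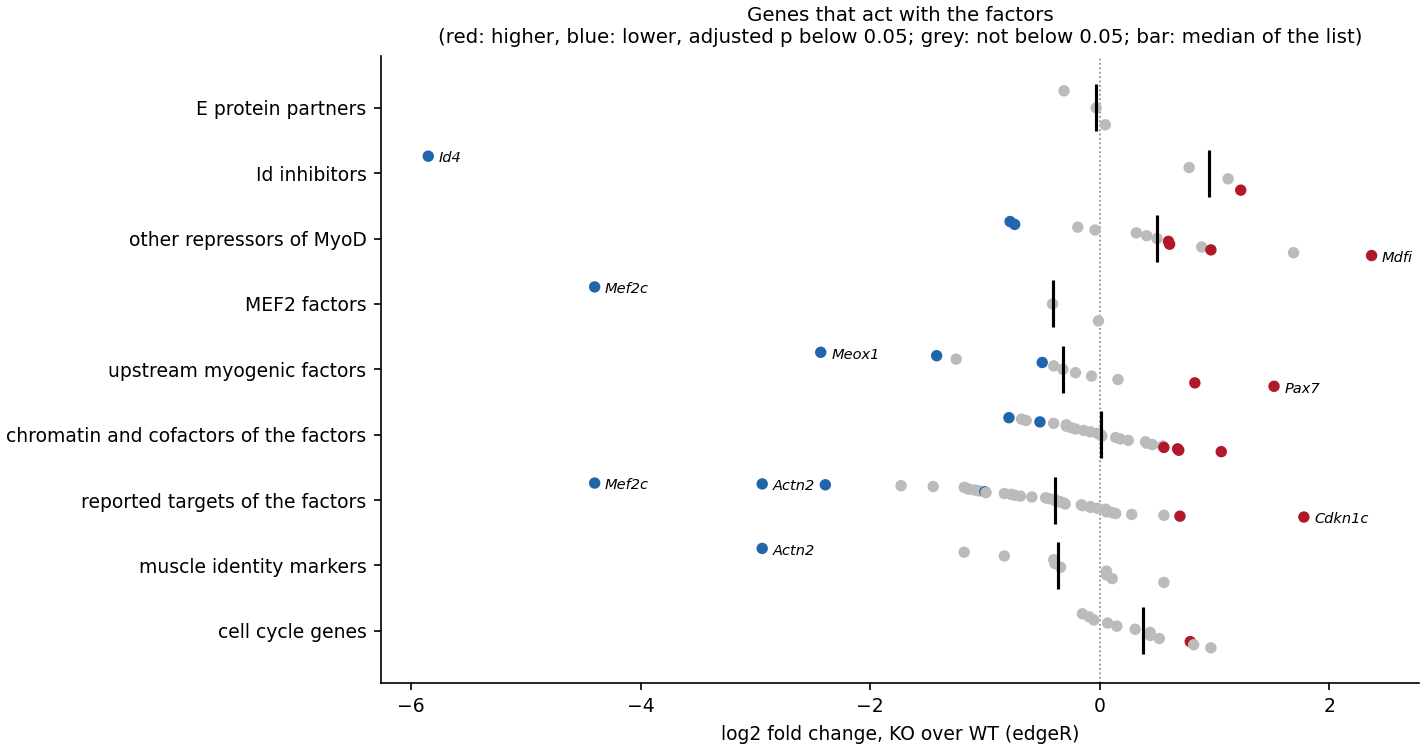
log2 fold change of KO over WT (horizontal axis, edgeR) of the tested genes of 9 lists, 1 point a gene, with the list median as a bar; red and blue points have an adjusted p below 0.05, and up to 2 passing genes a direction beyond a log2 fold change of 1.5 are named in each list. *Mef2c* at −4.40 (−6.35 without KO1), the fitted *Id4* value and *Mdfi* at 2.37 lie far from their lists' medians, and the target list has its median at −0.39. Genes shared between lists are drawn in each.

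The 40 genes listed as targets of the factors were all tested, and 2 rose and 4 fell, with a median of −0.39 (−0.24 without KO2 and −0.19 without KO3). This list also holds every muscle identity marker above except *Neb*, and *Mef2c* and *Rbm24* from other lists, so the lists are not independent. *Tnnc2*, counted among the targets, had 0.275 to 0.636 CPM but 14.0 to 78.85 TPM over the 6 libraries. Its log2 fold change on counts is therefore no reliable measure of it. *Mef2c*, *Actn2*, *Myl1* and *Atp2a1* fell, and *Cdkn1c* and *Cdh15* rose. *Actn2*, which encodes the Z-disc protein alpha-actinin, was 63.6, 51.9 and 30.0 CPM in KO and 364, 269 and 480 CPM in WT (−2.94, edgeR adjusted p = 0.00212), and its call held with any library left out. *Cdh15*, which encodes M-cadherin, was 632, 539 and 661 CPM in KO and 318, 424.5 and 386 CPM in WT (0.70, adjusted p = 0.0258), a call lost without KO3, WT1 or WT3. *Cdkn1c*, the cell cycle inhibitor p57, rose by 1.78 (adjusted p = 0.0397), and its call was kept only without KO1; without KO2 it was at 1.13. *Myl1* (−2.39, adjusted p = 0.0297) and *Atp2a1*, the calcium pump gene (adjusted p = 0.047), lost their calls without KO2, KO3, WT1 or WT3, and *Myl1* was at −3.47 without KO1. The fusion genes *Mymk* and *Mymx*, listed under older names in the files, were both at 0.06 (adjusted p = 0.929 and 0.918) with all libraries. *Mymk* was 823 CPM in KO1, 302 and 269 CPM in KO2 and KO3 and 419 to 478.5 CPM in WT, and without KO1 it fell (−0.65, adjusted p = 0.0167), whereas *Mymx* did not pass there (−0.46, adjusted p = 0.228). With all libraries the acetylcholine receptor gene *Chrna1* was at 0.06.

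KO1 carried several target RNAs at levels near or above those of WT, unlike KO2 and KO3. *Acta1* was 7023 CPM in KO1, 2553 in KO2, 2304 in KO3 and 2958 to 4188 in WT. *Actn2* and *Mef2c*, in contrast, were below every WT library in KO1 too. *Myl4*, an embryonic myosin light chain gene, was 1013 CPM in KO1, 88.0 in KO2, 130.2 in KO3 and 905 to 1302 in WT. *Casq2*, which encodes a calsequestrin, was 986.5 CPM in KO1, 245 in KO2, 277 in KO3 and 810 to 1191 in WT. Without KO1, 23 of the 40 targets fell and 2 rose in edgeR, with a median of −0.89, where 15.1% of all genes tested fell and 15.5% rose. In that fit *Myog* was at −0.10 (adjusted p = 0.77) and *Myod1* at 1.12 (adjusted p = 0.00427). The targets that fell there included *Myh3* (−2.04), *Tnnt2* (−1.89), *Tnni1* (−1.72), *Ckm* (−1.29) and the cell cycle inhibitor *Cdkn1a* (−1.12). With WT3 left out instead, 1 of the 40 fell and none rose, where 4.4% of all genes tested fell and 4.03% rose. Among the KO libraries *Myog* (1709 CPM) and *Myf6* (15 reads) were highest in KO1 as well, whereas *Myod1* (171 CPM) was lowest there. The part of clone, culture or genotype in the difference between KO1 and the other KO libraries was not tested.

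Of 12 cell cycle genes, *E2f1* rose (0.79, edgeR adjusted p = 0.0378), a call lost without KO2, WT1, WT2 or WT3, and none fell, with a median of 0.37 that was 0.18 without KO2 and 0.59 without KO1. Without KO1, 6 of the 12 rose, among them *Mki67* (1.10) and *Mcm5* (1.17), where 15.5% of all genes tested rose. Without KO2, WT1, WT2 or WT3 none of the 12 did, where 9.43%, 2.96%, 6.95% and 4.03% of all genes tested rose. Markers of other cell types were read beside the members. Of 8 fibroblast and fibro-adipogenic markers 6 were tested and 4 rose, *Dpt* (5.88), *Ly6a* (2.76), *Cd34* (1.74) and *Pdgfra* (1.17). None fell, and the median was 1.64, where 12.1% of all genes tested rose. Without KO1 5 rose, and without WT1 or WT3 2 did, where 15.5%, 2.96% and 4.03% of all genes tested rose. *Dcn* and *Col3a1* did not pass, and *Dcn* was 90.6 CPM in KO1, 7.58 in KO2, 7.62 in KO3 and 7.01 to 17.7 in WT. The summed level of the list was 5268 to 8486 CPM in KO and 3488 to 4565 CPM in WT, most of it *Col3a1*. *Dpt* was lowest of KO in KO1 (3.78 CPM against 56.3 and 35.0 CPM) and at 5.18 without KO2, and its call and that of *Ly6a* held with any library left out, whereas *Cd34* lost its call without WT1 or WT3 and *Pdgfra* without KO3, WT1, WT2 or WT3. The adipocyte markers *Adipoq*, *Plin1* and *Fabp4*, the endothelial markers *Pecam1* and *Tie1* and the immune markers *Adgre1* and *Cd3e* were at or under 3 reads in every library. In the remaining lists *Cebpa* (1.24, adipocyte) and *Tubb3* (2.76, neural) rose and *Gata4* (−1.60, cardiac) and *Kdr* (−2.15, endothelial) fell, and no bone or immune marker passed the test. The *Kdr* call was lost without KO3, WT1, WT2 or WT3, and the *Cebpa* call also without KO2, while those of *Tubb3* and *Gata4* held. The part of these markers in the differences of *Myod1*, *Myf5* and *Myf6* was not tested.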

How the data were processed

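RNA from 3 *Hnrnpa2b1* KO and 3 WT C2C12 libraries (paired reads of 150 bases) was analysed. The authors aligned reads with STAR, counted them with featureCounts and deposited raw counts per gene. StringTie TPM for each library were deposited by the authors too, and values sharing an identifier were summed. Tool versions, annotation release and use of strand are not given in the sources used here. The methods name GRCm39 and the submitters' processing notes mm9, but the deposited coordinates fit GRCm38 (98.15% of identifiers within 1000 bases of GENCODE M21).

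Counts (46078 genes) were filtered with filterByExpr, scaled by TMM and tested two-sided with edgeR 4.0.16's quasi-likelihood test (R 4.3.3), adjusted by Benjamini-Hochberg and called under 0.05. At an unadjusted p under 0.05, 5781 of 14828 genes differed. TPM were tested with limma 3.58.1 on log2(TPM + 1), for genes with at least 1 TPM in at least 3 libraries. Ratios and shares had exact permutation tests. The 4 members, their lists and the tests were chosen with earlier results of these data known. Named genes were all members, passing genes of each list (at most 4 a direction, otherwise the most abundant), neighbours within 500 kb and the 5 genes most correlated with each member above 5 in mean log2 CPM; some genes these rules name are not reported here. *Myl4*, *Casq2*, *Acta1*, *Tnnc2*, *Dcn*, *Chrna1*, *Mymk*, *Mymx* and those listed without KO1 were chosen after their values were seen. Alternatives were DESeq2 1.42.0, other scalings, no filter, the replicate block, a pseudocount of 0.1 and each library left out. TPM rescaled without the 4 genes of largest TPM (44.3% to 51.1% of a library) was added after seeing the data. The steps were tested on simulated data. Counting intervals cover counting error only. Promoters are from RefSeq (GRCm38.p6).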

Additional observations from a re-analysis of the deposited data

How the results depend on the processing

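With each library left out in turn, edgeR's log2 fold change of *Myod1* lay between 0.78 and 1.12, of *Myog* between −0.10 and 0.26, of *Myf5* between −2.11 and −1.24 and of *Myf6* between −5.08 and −3.13. Adjusted p over the alternatives ran from 1.77e-05 to 0.0789 for *Myod1*, from 1.36e-07 to 0.0826 for *Myf5* and from 2.28e-08 to 0.0647 for *Myf6*. The count of genes past the threshold fell from 3361 to between 933 (without WT1) and 2695 without a library, apart from 4712 without KO1. For TPM it went from 2394 to between 484 (without WT1) and 3156, and to 1075 with no filter on low values, where *Myod1* (adjusted p = 0.0931) and *Myf5* (0.0924) also lost their limma calls. In limma *Myod1* also missed the threshold with KO2, KO3, WT1 or WT3 left out (0.0504 to 0.098) and *Myf5* with WT1 or WT3 left out (0.0554 and 0.05). On log2(TPM + 1) *Myog* turned to −0.07 without KO1, −0.03 without KO2 and −0.09 without WT3. DESeq2, other scalings and the absence of a filter on counts kept the calls of *Myod1*, *Myf5* and *Myf6*, and scaling by library totals moved the median of all genes from 0.03 to 0.15 and the share of calls that were higher in KO from 53.4% to 66.2%. For TPM that share was 41.9%, and 54.5% after rescaling. Of the 40 targets, 9 fell in DESeq2 and 17 with no filter on counts, against 4 in edgeR. Over all genes the calls rose too, from 3361 to 4161 in DESeq2 and 4538 with no filter. Of these calls 53.4%, 51.3% and 51.1% were higher in KO. *Myf6* on TPM was at −0.92 (adjusted p = 0.0585) without the filter and −1.33 (0.00815) with TPM rescaled.

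Libraries of KO and WT share numbers only. The deviations of same-numbered libraries had r of 0.137, −0.116 and 0.004, and not every library correlated best with its own number. With the replicate block, edgeR called 2520 genes and the log2 fold changes were 0.97, 0.03, −1.63 and −3.76 for *Myod1*, *Myog*, *Myf5* and *Myf6*, with the same calls. In limma the block called 2103 genes. The paired log2 difference of the *Myod1* to *Myog* ratio was 0.943, a mean that pairing cannot change with 3 libraries of each genotype. *Myf6*, with 2 to 118 reads a library, is the member most limited by depth.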
